A study of Homo sapiens with 4 samples.

Results

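Cadherins, catenins and the giant protocadherin FAT1 join epithelial cells to each other, and 6 of their genes are described here in RNA pulled down with YTHDF2. The genes were FAT1, CDH1, CDH2, CTNNA1, CTNND1 and JUP, and they had been selected on the peaks of this same list, so which of them have a peak is a description and carries no test. Peaks of an exon or intron were taken by the Entrez number in the peak's annotation, and all other peaks by the gene span that holds the summit. This gave 17 of the 14858 peaks in the list. FAT1 had 7 of them, CTNNA1 4, CTNND1 3, CDH2 2 and JUP 1, and CDH1 had none.

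The samples were 2 libraries of YTHDF2 RNA immunoprecipitation (RIP) and 2 libraries of input RNA, all from HCCLM3 cells. HCCLM3 is an established human hepatocellular carcinoma line of high metastatic potential. The sample titles give no genotype. The name of the deposited peak list carries WT, read here as wild type, without saying whether it describes the cells. No added treatment, time point or altered gene is given in the labels, and no control antibody pulldown was analysed here. In RIP sequencing an antibody recovers a protein together with the RNA bound to it, and the recovered RNA is set against the input. The authors' processing joined the libraries into a single peak list with no value per library, so the spread between replicates and the library depths are unknown. Nothing in the labels says whether replicates came from separate cultures. The caller's fold is the RIP level at the summit over a background, taken from the scaled input at or around the summit or from the genome-wide mean. Its q is the caller's own adjusted value for a single peak. Both are the authors' values throughout. RIP fragments at each summit, and the background the caller set against them, were recovered from the fold and the p. A background that is not a whole number of input fragments is not an input count at the summit itself. The 95% intervals of a fold cover the counting error of the RIP fragments only unless stated otherwise.

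As background, classical cadherins such as E-cadherin (CDH1) and N-cadherin (CDH2) are single-pass receptors whose outer domains bind cadherins on the neighbouring cell in the presence of calcium. Their tails hold β-catenin or plakoglobin (JUP), which recruits α-catenin (CTNNA1) and through it actin, while p120-catenin (CTNND1) binds nearer the membrane and keeps cadherins at the surface. Loss of E-cadherin beside gain of N-cadherin is a textbook mark of epithelial cells becoming migratory, and FAT1 is an atypical cadherin with a very long extracellular part that has been linked to Wnt and Hippo signalling. YTHDF2 is a reader of N6-methyladenosine (m6A) in mRNA, best known for bringing bound transcripts to deadenylation and decay, and m6A itself is densest near stop codons, in 3' UTRs and in long internal exons.

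Of the 17 peaks, 11 had a q of 0.01 or less, the threshold used below for a peak that passed. In the whole list 37.3% of peaks passed. Of the 6 genes, 5 had a peak and the same 5 had one that passed. Among the protein-coding genes of the RefSeq table, 34.8% had a peak and 18.5% had one that passed, which is 53.1% of those with a peak. Because the members were chosen by their peaks, nothing is read from these shares. The passing peak nearest to the threshold was one in FAT1 exon 2, with a −log10 q of 3.37, and the nearest outside it was the FAT1 intron 1 peak, with 0.995.

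The 11 passing peaks include 4 of FAT1 exon 2, which are not separate observations. All 11 held 44 to 150 RIP fragments at the summit, with a median of 122, against a median of 66 for all passing peaks. Their backgrounds had a median of 64.0 scaled fragments, against 25.8 for all passing peaks. Their folds were between 1.59 and 2.94 with a median of 2.09, against 2.53 for all passing peaks. Each of these medians of the 11 is the value of a FAT1 exon 2 peak. The 5 passing 3' UTR peaks of the group had medians of 74 RIP fragments, a background of 30.0 and a fold of 2.25. All passing 3' UTR peaks had medians of 70, 27.9 and 2.39. Passing peaks of the list go down to 6 fragments, and a peak of few fragments passes only with a high fold. Folds were not compared at similar fragment counts. A fold under 2 was found in 5 of the 11, and in 25.7% of all passing peaks. The 5 were peaks of FAT1 exon 2 (1.64, 1.59 and 1.71), CTNNA1 (1.79) and CTNND1 (1.77). The backgrounds of CDH2 and of the distal CTNND1 peak in the 3' UTR, 17.1 and 19.03, and that of FAT1 exon 3, 21.8, lay below the median of all passing peaks, and the other 8 lay above it. Not all are input counts at the summit. Those of CDH2 (25.2 input fragments), JUP (44.1), the broad CTNND1 peak (113.4) and a FAT1 exon 2 peak (94.2) were not whole numbers of input fragments.

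**Figure D1:**
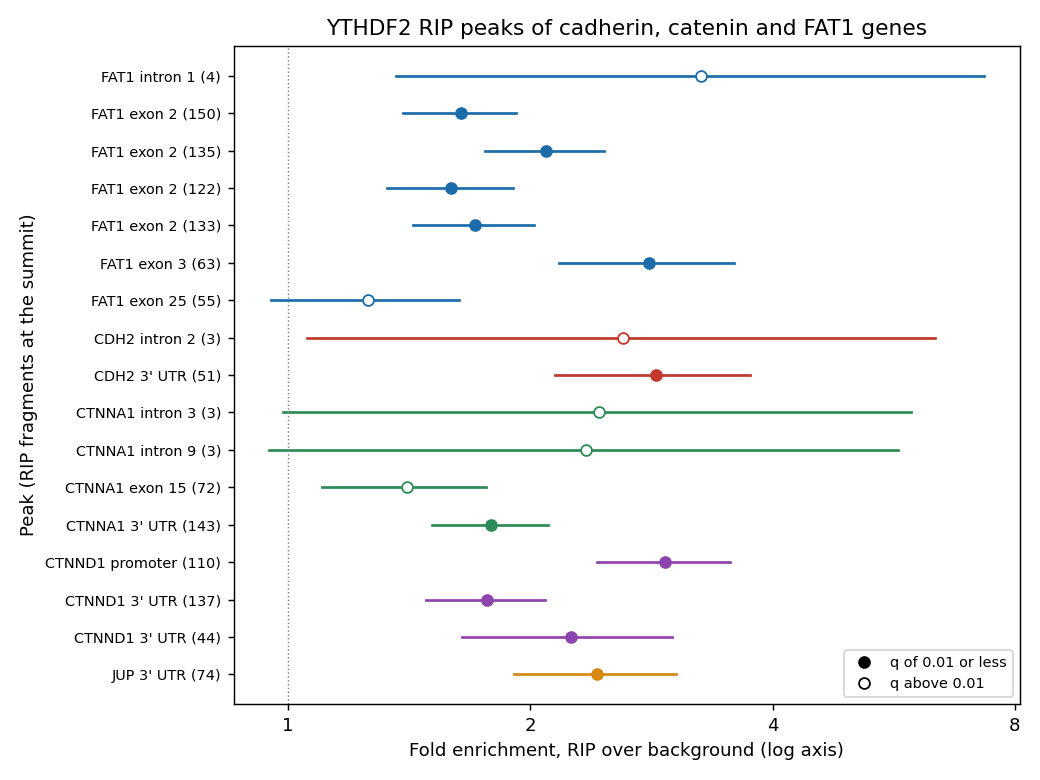
Fold enrichment of each of the 17 peaks on a log axis, ordered by gene and then from the gene start, with the RIP fragments at the summit in brackets. Bars are 95% Poisson intervals of the RIP fragments with the background held fixed, filled points have a q of 0.01 or less, and the dotted line marks a fold of 1. The 4 intron peaks rest on 3 or 4 fragments and have the widest bars.

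By position, and under the gene assignment used, the 5 passing peaks of FAT1 were all exon peaks, 4 of them in exon 2. The 6 of the other members were 5 peaks in 3' UTRs and 1 promoter-class peak. This split depends on the assignment. Another 2 passing exon peaks inside CTNND1 were annotated to TMX2-CTNND1, a transcript that runs through the gene, and are not counted here. Over all passing peaks, 25.3% were exon peaks, 37.6% 3' UTR peaks and 26.0% promoter-class peaks. Introns held 4 of the 17 member peaks, and none of them passed. In the whole list introns held 21.4% of all peaks and 4.17% of those that passed, so nothing is read from this about the members. The 4 intron peaks had folds between 2.34 and 3.26 over 3 or 4 fragments, next to backgrounds of 0.533 to 0.707 scaled fragments.

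FAT1 encodes a protocadherin with a long run of extracellular cadherin repeats. It lies on the minus strand of chromosome 4 (186587794 to 186726696, hg38) and spans 138903 bp. Of its 5 passing peaks, 4 lay in exon 2 of 27 and 1 in exon 3. Ordered from the gene start, the exon 2 peaks had folds of 1.64, 2.09, 1.59 and 1.71, over 150, 135, 122 and 133 RIP fragments. Their backgrounds in the same order were 91.1, 64.0, 76.1 and 77.5 scaled fragments. The second of them, at chr4:186708577-186708934, had the lowest background of the 4 and the highest fold, which is computed from that background. Its −log10 q of 10.9 was the highest of any FAT1 peak. Its background, 94.2 input fragments, is not a whole number, while those of the rest are (134, 112 and 114). The 4 backgrounds are therefore not all the same measure.

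The 4 exon 2 peaks ran over 3077 bp (chromosome 4, 186706424 to 186709500) and together covered 1741 bp, or 56.6%, of that stretch. Neighbouring summits were 602, 725 and 1339 bp apart, and the gaps between peaks were 219, 395 and 722 bp. The 4 summits held 540 RIP fragments in all. They are parts of a single exon and may share RNA molecules, so they are not separate observations of FAT1. In the whole list 1384 exons had a passing peak, and 98.9% of them had exactly 1. Only 2 exons reached 4 passing peaks, FAT1 exon 2 and exon 31 of MUC5AC, a gel-forming mucin whose central exon is very long and repetitive, and none had more. Exon lengths were not used here, so how far the number of peaks goes with the length of the exon was not tested.

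The exon 3 peak (chr4:186663072-186663388) lay 43426 bp downstream of the nearest exon 2 summit on the gene. It rested on 63 RIP fragments over a background of 21.8, a fold of 2.81, and its −log10 q was 9.32. It was the narrowest FAT1 peak, at 317 bp. With RIP counting error alone, its interval of 2.17 to 3.59 lay above those of 3 of the exon 2 peaks, whose upper bounds were 1.92, 1.90 and 2.02, and overlapped that of the fourth (1.76 to 2.47). The background at exon 3 equals 32 input fragments after scaling. With the counting error of the input added, the scaled ratio at exon 3 was 2.90 (95% interval 1.86 to 4.58). The same ratio was 1.65 (1.296 to 2.09), 1.60 (1.23 to 2.09) and 1.72 (1.33 to 2.22) at the exon 2 peaks whose background is a whole number of input fragments. The exon 3 interval then overlapped all 3. Overlap of separate intervals is no test of a difference, and the difference between exon 3 and exon 2 was not tested.

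The other end of the FAT1 mRNA gave no passing peak. A peak in exon 25 had a fold of 1.26 over 55 RIP fragments and a background of 43.5, or 64 input fragments, with a −log10 q of 0. Its scaled ratio had an interval of 0.865 to 1.84, which includes 1. No peak of any q lay in the 3' UTR of FAT1. A list of peaks gives no level where it has no peak, so this does not measure the RIP level of that 3' UTR. The intron 1 peak rested on 4 fragments (fold 3.26, −log10 q 0.995), the highest fold of any member peak and among the least certain.

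**Figure D2:**
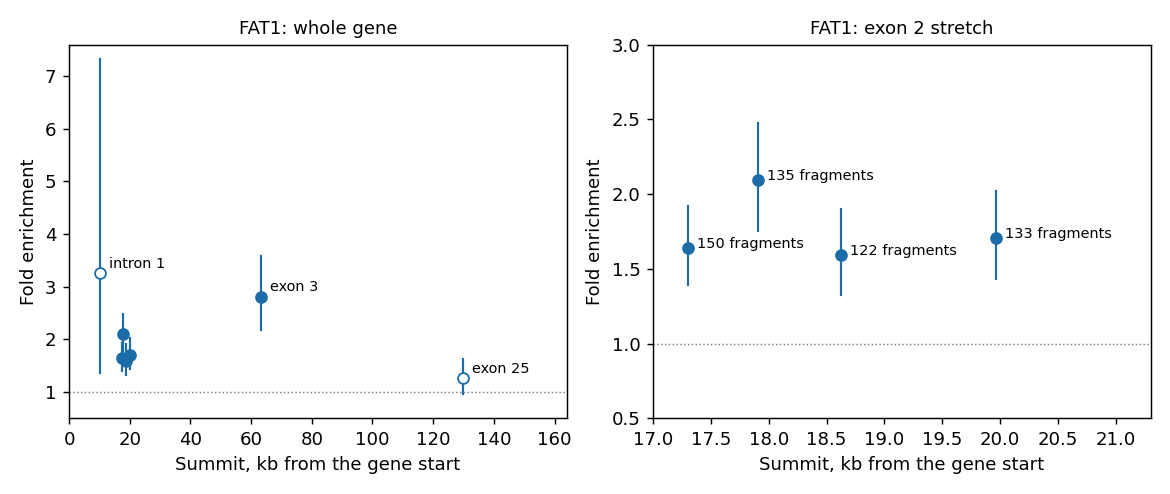
Fold enrichment of the 7 FAT1 peaks against the distance of the summit from the gene start in kb, over the whole gene at left and over the exon 2 stretch at right. Bars are 95% intervals of the RIP fragments, filled points passed a q of 0.01, and the 4 exon 2 summits lie between 17302 and 19968 bp with folds of 1.59 to 2.09.

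Set against the rest of the list, the exon 2 peaks of FAT1 had low folds and many fragments. Among passing exon peaks its exon 2 folds stood at percentiles 6.31, 29.0, 4.38 and 8.73 from the gene start on, while their RIP fragments stood at 91.4, 87.4, 82.8 and 86.6. The exon 3 fold stood at percentile 53.6. Passing exon peaks go down to 6 fragments, where only a high fold passes, so these percentiles of fold are not at similar fragment counts. Of 1093 protein-coding genes with a passing exon peak, 5 had at least as many as FAT1 and 2 had more. That count of 5 includes FAT1 itself. In transcripts of 20 or more exons the list had 502 passing exon peaks, of which 49, or 9.76%, lay in exon 2 or 3. All 5 FAT1 peaks are among those 49.

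Compared by the shares of passing peaks over 3' UTR, exon, intron, promoter and other classes, 21 of 247 genes with at least 3 passing peaks had the same shares as FAT1, a distance of 0. The nearest in number of peaks and then in median fold were MUC5AC with 5 exon peaks (median fold 2.11), CLIP1, a microtubule plus-end protein, with 4 (1.73), and KMT2E, a chromatin protein, with 4 (1.96), against a median fold of 1.71 for FAT1. The exon peaks of CLIP1 and KMT2E each lay in 4 different exons, unlike those of FAT1.

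CDH2 encodes N-cadherin and lies on the minus strand of chromosome 18 (27932879 to 28177130). Its 3' UTR peak at chr18:27950823-27951225 had a fold of 2.87 (95% interval 2.15 to 3.75) over 51 RIP fragments and a background of 17.1, the lowest background of any passing member peak. Its −log10 q was 7.70. The summit lay 145 bp from the 3' end of the transcript that the list names, although the RefSeq gene span puts the gene end 18232 bp from that summit. CDH2-AS1, a long non-coding RNA, overlaps this position. The list gives no strand, so reads of CDH2 and CDH2-AS1 cannot be told apart there. The other CDH2 peak, in intron 2, had 3 fragments and a −log10 q of 0.166.

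CDH1, which encodes E-cadherin (chromosome 16, 68737292 to 68835537), had no peak of any q within its span or within the deposited assignment. This gives no level for CDH1 RNA, since an mRNA that is absent and one that is present without enrichment over input both leave no peak.

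CTNND1, the p120-catenin gene (plus strand, chromosome 11, 57761802 to 57819540), had the member peak with the highest −log10 q and the highest fold among those that passed. A promoter-class peak at chr11:57761973-57762287 had a fold of 2.94 (95% interval 2.42 to 3.54) over 110 RIP fragments and a background of 36.7, with a −log10 q of 18.3, above 95.9% of the list. Its summit lay 284 bp inside the gene, so it covers the start of the transcript and not DNA upstream of it. Its width of 315 bp is the smallest in the list, which many peaks share, at percentile 2.22 among passing promoter-class peaks. The background equals 54 input fragments, and with input counting error the scaled ratio was 2.997 (2.14 to 4.23).

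The 3' UTR of CTNND1 held 2 passing peaks. The first, at chr11:57817052-57818540, was 1489 bp wide, wider than 99.1% of passing 3' UTR peaks. It had a fold of 1.77 (95% interval 1.49 to 2.09) over 137 RIP fragments and a background of 77.1. The second, at chr11:57818858-57819220, lay 548 bp from the gene end and had a fold of 2.25 (1.65 to 2.998) over 44 fragments and a background of 19.03. The intervals of these neighbours overlapped. The broad peak lay below the promoter-class peak by RIP counting error alone (upper bound 2.09 against a lower bound of 2.42), with the input error not included. The background of the broad peak, 113.4 input fragments, is not a whole number, while that of the promoter-class peak, 54, is. These backgrounds are therefore not the same measure, and the difference was not tested.

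In addition, 2 exon peaks inside CTNND1 were annotated to TMX2-CTNND1, a non-coding readthrough transcript that runs through the gene, and so are not counted with the 17. They lay in exons 8 and 15 of its 21, had folds of 1.58 and 1.64 over 111 and 81 RIP fragments, and passed with −log10 q of 2.76 and 2.20. Counted with CTNND1 they would give it 5 passing peaks, as many as FAT1, and passing exon peaks would not be those of FAT1 alone. The span of the readthrough holds all 3 member peaks of CTNND1 too, so RNA of either transcript could lie under them. By shares of peak classes, 18 of 247 genes equalled CTNND1 with its member peaks alone. The nearest were STARD7, a lipid transfer protein, TGOLN2, a trans-Golgi protein, and RAP2C, a small GTPase, each with 2 3' UTR peaks and 1 promoter-class peak and median folds of 2.19, 2.14 and 2.40, against 2.25 for CTNND1.

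CTNNA1, the αE-catenin gene (plus strand, chromosome 5, 138753425 to 138935034), had 1 passing peak among 4. It lay in the 3' UTR at chr5:138934033-138935159 and had a fold of 1.79 (95% interval 1.51 to 2.10) over 143 RIP fragments and a background of 79.5, or 117 input fragments. Its −log10 q was 6.995. At 1127 bp it was wider than 97.8% of passing 3' UTR peaks, and its summit lay 919 bp from the gene end. Upstream in exon 15 of 19, a peak of 72 fragments over a background of 51.0 reached a 1.40-fold level with a −log10 q of 0.175. The peaks in introns 3 and 9 had 3 fragments each and a −log10 q of 0.

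JUP encodes plakoglobin, the catenin shared by adherens junctions and desmosomes (minus strand, chromosome 17, 41754609 to 41786711). Its single peak lay in the 3' UTR at chr17:41754504-41754841 and had a fold of 2.42 (95% interval 1.91 to 3.03) over 74 RIP fragments and a background of 30.0. Its −log10 q was 8.08. The summit lay 135 bp from the gene end, and the peak reached past the annotated end. The deposited list names HAP1 for this peak, by the nearest start site, although the summit lies inside JUP.

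The 5 passing 3' UTR peaks of the group had folds between 1.77 and 2.87, with a median of 2.25, against 2.39 for the 2086 passing 3' UTR peaks of the list. Ordered by fold they were CDH2, JUP, the distal CTNND1 peak, CTNNA1 and the broad CTNND1 peak. Each had an interval that overlapped that of its neighbour in this order. The CDH2 interval lay above those of CTNNA1 and the broad CTNND1 peak by RIP counting error alone. The backgrounds of CDH2 and the broad CTNND1 peak are not whole numbers of input fragments, while that of CTNNA1 is. Folds over these backgrounds are therefore not all the same measure. Measured to the RefSeq gene end, the summits of JUP, CTNNA1 and the distal CTNND1 peak lay within 1000 bp, as did 56.97% of 1715 passing 3' UTR peaks with a known strand, whose median was 615 bp. Both broad peaks, in CTNND1 and CTNNA1, had low folds over high background, and the 3 narrower ones had higher folds over lower background.

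**Figure D3:**
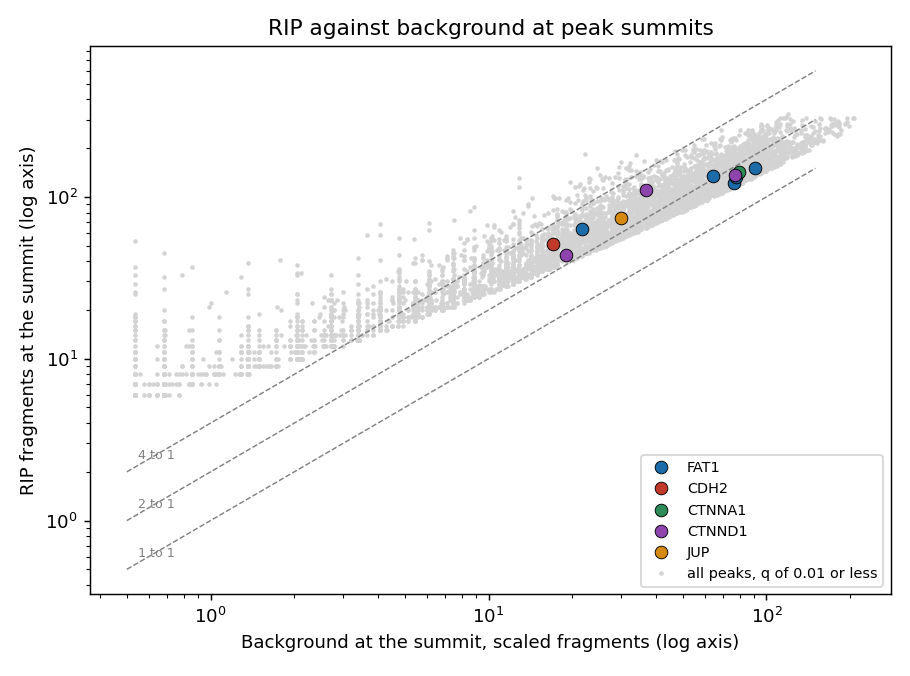
RIP fragments at the summit against the caller's background for every passing peak, both on log axes, with the 11 member peaks coloured by gene and dashed lines at ratios of 1, 2 and 4. The background is not always the input count at the summit. The exon 2 peaks of FAT1 and the broad 3' UTR peaks of CTNND1 and CTNNA1 sit together at 122 to 150 RIP fragments, while CDH2 and the distal CTNND1 peak sit at 51 and 44.

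The bases under these peaks could not be shown, because no genome sequence was used here. RefSeq promoter windows, which end 50 bases inside each start site, were held for FAT1, CTNNA1, JUP and CDH2, and no member peak overlapped them. CTNND1, the only member with a promoter-class peak, had no such window. The windows also lie mostly upstream of the start site, so nothing is read from the lack of overlap.

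The wider junction was described with 60 other genes in 6 lists taken from textbook knowledge. Of these, 25 had a peak and 11, or 18.3%, had one that passed, next to the 18.5% of all protein-coding genes. Their median best passing fold was 2.62, and that of all protein-coding genes with a passing peak was 2.64. Neither the share nor the median thus stood apart from that of all protein-coding genes.

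Among 10 other cadherins only CDH6, a kidney and mesenchymal cadherin, passed, with a fold of 4.76 over 7 fragments in exon 9 of 11. The CDH6 fold had a wide 95% interval, 2.27 to 9.18, and a background of 0.68, the level of 1 scaled input fragment. The VE-cadherin gene CDH5, the P-cadherin gene CDH3 and the liver-intestine cadherin gene CDH17 had no peak. Among 13 atypical cadherins and protocadherins, CELSR1, a planar polarity cadherin, passed with a fold of 2.51 over 23 fragments in its 3' UTR. FAT2, FAT3 and FAT4, the paralogs of FAT1, and DCHS1, the ligand of FAT4, had no peak in the list.

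Of 11 other catenins and plaque proteins, 3 passed. CTNNB1, the gene of β-catenin, had 2 passing peaks, the higher of them a 3' UTR peak of 2.62-fold (95% interval 1.98 to 3.39) over 55 fragments and a background of 20.4. The plakophilin genes PKP3 (1.89-fold over 47 fragments, exon 5) and PKP4 (1.81-fold over 92, 5' UTR) also passed. VCL, which encodes the actin linker vinculin, had only peaks that did not pass.

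Of 9 desmosome genes, DSC2, a desmosomal cadherin, passed with 3.42-fold over 20 fragments in its 3' UTR, and DSP, the plaque protein desmoplakin, with 1.79-fold over 171 fragments in its last exon. Of 5 genes of nectins and afadin none passed, though NECTIN1 and NECTIN2 had peaks with higher q. Of 12 cadherin regulators 4 passed. PTPRK, a receptor phosphatase, had 7.83-fold over 11 fragments on an alternative contig of chromosome 6. The PTPRK fold had a wide 95% interval, 4.23 to 13.5, and its background of 0.533 was the genome-wide level. ADAM10, the protease that sheds E-cadherin and N-cadherin, had 2.90-fold over 23 fragments in its 3' UTR.

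The repressors of CDH1 transcription were named after their values were seen. ZEB2 had a 3' UTR peak of 3.86-fold over 7 fragments with a −log10 q of 1.9995, just short of the threshold. ZEB1 (4 fragments, intron) and SNAI1 (14 fragments, 1.91-fold) had peaks that did not pass, and SNAI2 and TWIST1 had none. Of 10 hepatocyte or liver carcinoma markers only KRT8 and KRT18 passed, APOB and HNF4A had weaker peaks, and ALB, AFP, TTR, APOA1, SERPINA1 and EPCAM had none. Of 6 markers of other cells HBB passed, PECAM1 and CD68 had weaker peaks, and PTPRC, COL1A1 and VIM had none. Of all protein-coding genes 18.5% had a passing peak. A peak is enrichment over input, so these marker counts cannot check the cell label. Absence from the list gives no expression level for any gene named here.

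**Figure D4:**
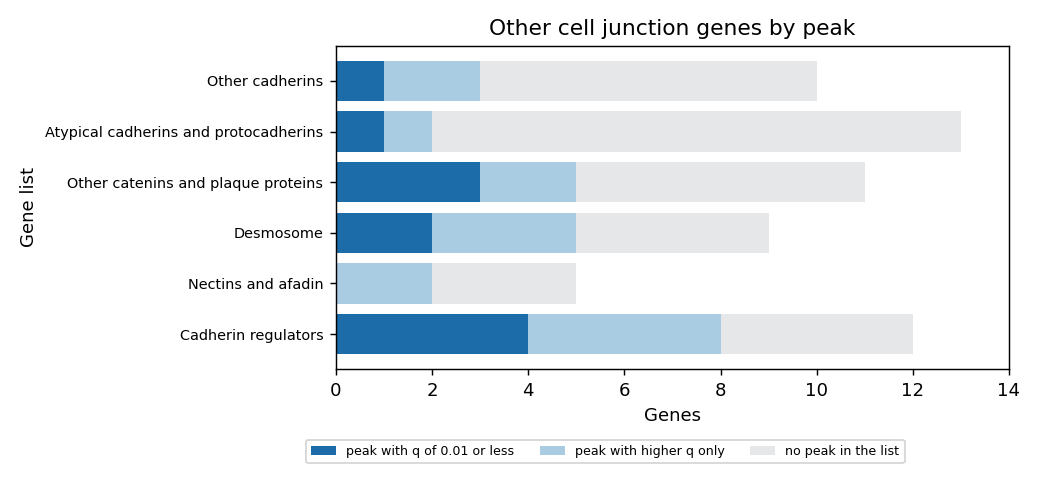
Number of genes in each of the 6 lists with a peak of q of 0.01 or less (dark), with only weaker peaks (light) and with no peak (grey). Cadherin regulators had 4 of 12 genes passing, the other catenins and plaque proteins 3 of 11, the desmosome 2 of 9, and both cadherin lists 1 each.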

How the data were processed

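The deposited file is 1 peak list from 2 RIP and 2 input libraries, grouped by the labels. The submitters' processing notes list HISAT2, MACS2 and hg38. Their options and versions, and how libraries were combined, are not given in the sources used. Per the file headers, each peak has a fold enrichment (a ratio made by the authors), −log10 p and −log10 q from the caller and a score, and all were used as deposited, the score not at all. The list holds no value per library, so no test between samples was made. Depth per library is unknown.

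RIP fragments k and background b were solved from fold = (k + 1) / (b + 1) and the Poisson p. They met every deposited −log10 p within 0.000189, and the method was tested on simulated peaks. The commonest low backgrounds, 0.533 and 0.68, were taken as the genome-wide level and 1 scaled input fragment, and a background was called whole input within 0.02 fragments. Intervals of folds are exact Poisson for k with b fixed. Scaled ratios use Clopper-Pearson intervals on RIP and input fragments. All cover counting error only, since PCR copies of a molecule cannot be recognised.

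Peaks outside exons and introns went to the gene span of RefSeq GRCh38.p14 holding the summit, protein-coding genes first. Named genes were the members, up to 3 genes per list with the highest passing fold, and the 3 genes most like each member with at least 3 passing peaks. An item that this rule takes is not reported here. Further genes named without a peak, or with only weaker peaks, were added after their values were seen. Members and lists were chosen with earlier results of these data known. Alternatives covered q, fold and fragment limits, contigs and gene assignment. Python 3.11.15, pandas 2.3.3 and SciPy 1.17.1 were used.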

Additional observations from a re-analysis of the deposited data

How the results depend on the processing

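No paired analysis was possible because the list has no value per library. With a q of 0.05 or less, a −log10 q of at least 5 or a fold of at least 2, the 17 member peaks became 11, 9 and 10. The 11 passing member peaks became 6 at a fold of at least 2. The 11 other junction genes that passed became 4 at a −log10 q of at least 5, 7 at a fold of at least 2 and 6 with the deposited gene. For FAT1 the peak of highest −log10 q had a fold of 2.09 in place of 2.81, and for CTNNA1 the highest fold whatever the q was 2.44, from an intron peak of 3 fragments, in place of 1.79. The other 45 recomputed values stayed within 1.5 times of the count, or within the counting interval of the share or fold. Among these, the 5 members with a passing peak became 4 at a fold of at least 2, losing CTNNA1, and 4 with the deposited gene, losing JUP. The 11 other junction genes that passed became 9 at 10 or more RIP fragments, and CDH6 was among those lost. With the deposited gene JUP has no peak and so no fold.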
